A study of Homo sapiens with 18 samples.

Results

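Immediate early genes are switched on within minutes of a stimulus from promoters that already carry CREB, serum response factor and related factors, and need no new protein for it. In neurons, calcium entry and cAMP signalling drive them, and many code for transcription factors (the FOS, JUN, EGR and NR4A families, NPAS4) that in turn act on slower effector genes such as BDNF. In the rodent striatum, dopamine acting through receptors coupled to cAMP is a classic inducer of FOS, ARC and EGR1. The 46 members described here were listed by symbol as genes of this class, including activity-regulated secreted proteins, and all 46 were found among 53853 gene entries. Of these, 44 passed a low-count filter and were tested among 17567 genes. EGR2 and EGR4, zinc finger factors of the EGR family, had 0 to 10 and 0 to 9 counts in a library and did not pass it.

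The cells were cerebral organoids grown with a ventral forebrain protocol from the human embryonic stem cell lines H9 and H1 and profiled in bulk by RNA-seq at day 83. Chronic organoids had 1 µM dopamine daily for 1 week and a last dose of 1 hour, acute organoids had vehicle during that week and 1 µM dopamine for 1 hour, and control organoids had vehicle throughout. The vehicle, 100 µM ascorbic acid, was present in every group, so no group lacks it. Each line and treatment has 3 libraries, numbered 1 to 18 in the labels, and values of a group are given in the order of those numbers. The labels do not say whether they came from separate cultures, so p-values cover no more than the spread among the libraries, possibly a technical one. In bulk RNA, fewer cells of a type and less RNA per cell cannot be told apart.

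Depth ran from 13647204 to 21691180 counts over 17 libraries. The remaining one, library 9 of the H1 controls, had just 43284 counts, of which 26 fell on 10 members. It is left out of all means and tests, so the H1 control group has n = 2 and the others n = 3. In 5 libraries (4, 8, 13, 17 and 18) the summed counts of 10 blood genes were 211 to 3110 and those of 6 gut genes 1 to 9, whereas the other 12 libraries used had 0 to 41 and 54 to 91. No chronic library is among the 5, and 1 of 2 H1 controls and 2 of 3 H9 controls are, so this split moves with chronic treatment. Its part in the results was not tested, and values with the split as a covariate or without the 5 libraries are given where they end a call. Without the 5, each line keeps 1 control, which is assumed to vary like the other groups. Summed TPM (a level scaled to transcript length and library) of 9 neuron markers was 9699 to 10782 in H9 and 5390 to 6513 in H1. That of 6 microglia markers was 0.19 to 7.27 over all 17 libraries, so the labelled neural identity had its markers. These markers do not speak to the ventral protocol. Summed TPM of 7 GABAergic markers was 777 to 1486 in H9 and 35.5 to 640 in H1. That of 7 glutamatergic markers was 34.7 to 71.1 in H9 and 1751 to 3692 in H1.

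The proximal promoters of these genes are known for cAMP response elements (CRE) and, in EGR1, serum response elements. The 250 bases before the start are shown for FOS and EGR1, the rapid genes that an acute response would be read from. They are also shown for NPTX2 and OSTN, called against control after a week of dopamine, and for VGF, called against acute organoids. All come from a set of RefSeq promoters on GRCh38.p14, in which 35 of the 46 members were found. NR4A2 and EGR3, also called after the week, were not in that set. Capitals mark the full CRE TGACGTCA, its half-site TGACG on either strand, and the CArG box that serum response factor binds, each matched on both strands, and a full CRE holds the half-site on both strands.
FOS, chr14:75278578-75278827, plus strand: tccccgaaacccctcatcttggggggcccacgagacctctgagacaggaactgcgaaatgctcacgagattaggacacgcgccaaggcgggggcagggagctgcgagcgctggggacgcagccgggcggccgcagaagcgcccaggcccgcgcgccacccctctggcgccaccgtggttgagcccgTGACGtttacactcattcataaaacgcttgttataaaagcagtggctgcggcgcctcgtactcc
EGR1, chr5:138465229-138465478, plus strand: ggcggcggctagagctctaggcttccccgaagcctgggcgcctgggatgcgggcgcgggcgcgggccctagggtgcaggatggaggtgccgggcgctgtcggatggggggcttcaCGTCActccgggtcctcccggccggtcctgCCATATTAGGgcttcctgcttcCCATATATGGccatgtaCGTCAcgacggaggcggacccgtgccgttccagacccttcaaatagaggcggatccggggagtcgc
VGF, chr7:101165570-101165819, minus strand: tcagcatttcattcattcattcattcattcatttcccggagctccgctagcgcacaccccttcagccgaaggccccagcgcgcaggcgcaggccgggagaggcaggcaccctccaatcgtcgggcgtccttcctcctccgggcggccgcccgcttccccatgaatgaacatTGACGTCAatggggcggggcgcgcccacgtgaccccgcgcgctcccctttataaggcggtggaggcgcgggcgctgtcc
NPTX2, chr7:98617035-98617284, plus strand: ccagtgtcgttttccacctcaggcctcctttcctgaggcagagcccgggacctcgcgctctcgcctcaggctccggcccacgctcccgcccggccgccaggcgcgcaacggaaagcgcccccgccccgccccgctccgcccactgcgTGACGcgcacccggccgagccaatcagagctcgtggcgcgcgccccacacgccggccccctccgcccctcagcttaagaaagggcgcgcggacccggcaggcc
OSTN, chr3:191198991-191199240, plus strand: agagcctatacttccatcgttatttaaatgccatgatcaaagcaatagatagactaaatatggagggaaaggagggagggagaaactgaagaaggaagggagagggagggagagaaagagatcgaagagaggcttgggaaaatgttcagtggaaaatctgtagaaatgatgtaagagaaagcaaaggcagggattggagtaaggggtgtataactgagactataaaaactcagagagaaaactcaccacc
The window of VGF holds a full CRE 79 bases before the start, FOS and NPTX2 hold 1 half-site each at 64 and 103 bases, EGR1 holds 2 half-sites and 2 CArG boxes, and OSTN holds none of these letters. The 35 members have 52 such windows, since some have several starts. A full CRE was found in 5 of the 52 (9.62%), against 1.65% of all 35116 promoter windows, and a half-site in 25 (48.1%), against 21.2%. A CArG box was found in 3 (5.77%, against 1.16%), a MEF2 site in 2 (3.85%, against 2.8%) and the AP-1 site TGANTCA in 0 (against 6.57%). A match is a description of these letters and not evidence of binding.

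At baseline and under treatment alike, most members were expressed at moderate levels. By mean TPM over the libraries of a line, H9 had 6 members at 100 TPM or more, 19 at 10 to 100, 15 at 1 to 10 and 6 under 1, and H1 had 3, 23, 16 and 4. In H9 the highest was SCG2, a granin of dense-core vesicles, at 1421 ± 238 TPM (SD, n = 9), followed by VGF, a neuropeptide precursor, at 353 ± 128 TPM. JUND and JUN, subunits of the AP-1 factor, RGS2, a brake on G protein signalling, and NPTX2, a secreted pentraxin that clusters AMPA receptors, followed at 148 ± 19.7, 140 ± 13.3, 130 ± 11.2 and 108 ± 9.20 TPM, and the ranges of neighbours in that order overlapped. In H1 the highest were JUND at 204 ± 31.1 TPM and SCG2 at 198 ± 43.1 TPM (n = 8), whose ranges overlapped, and then JUN at 124 ± 4.82 TPM and IER5 at 88.5 ± 12.8 TPM. The genes most used as activity reporters were much lower. FOS had 25.6 ± 5.35 TPM in H9 and 7.77 ± 0.876 TPM in H1, ARC 9.31 ± 2.20 and 5.24 ± 0.584, EGR1 3.66 ± 0.817 and 7.38 ± 1.42, NR4A1 4.98 ± 0.782 and 6.66 ± 0.988, NPAS4 3.96 ± 1.16 and 1.69 ± 0.607, and BDNF 3.85 ± 0.547 and 2.06 ± 0.549. FOSB, EGR2 and EGR4 were under 1 TPM in both lines.

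After 1 hour of dopamine no member was called in either direction. With edgeR's quasi-likelihood test at a Benjamini-Hochberg adjusted p under 0.05, 0 of 44 members were higher and 0 lower in acute than in control organoids in H9, in H1 and in the mean of the lines. Over all genes tested 0% were called in H9, 0.0114% in H1 and 0% in the mean, so few genes of any kind were called. With p under 0.05 before adjustment, 0 members were higher and 5 lower in H9, 2 higher and 0 lower in H1, and 0 in either direction in the mean. The 5 lower in H9 (CYR61, FOSL1, FOS, JUNB and JUND) are 11.4% of the members, against 1.63% of all genes lower and 1.37% higher there at that p. The 2 higher in H1 (EGR3 and NPTX2) are 4.55%, against 2.7% of all genes higher and 0.831% lower, and in the mean 2.08% of all genes were higher and 0.922% lower. DESeq2 and limma also called 0 members in each of these comparisons. The median log2 fold change of the members was -0.13 in H9, 0.02 in H1 and -0.06 in the mean, against 0.00, 0.01 and 0.01 over all genes tested, and 11, 25 and 16 of the 44 were above 0. The 95% interval lay wholly inside a 2-fold change in either direction for 38 members in H9, 35 in H1 and 42 in the mean, so a larger acute change of those was outside the interval.

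**Figure D1:**
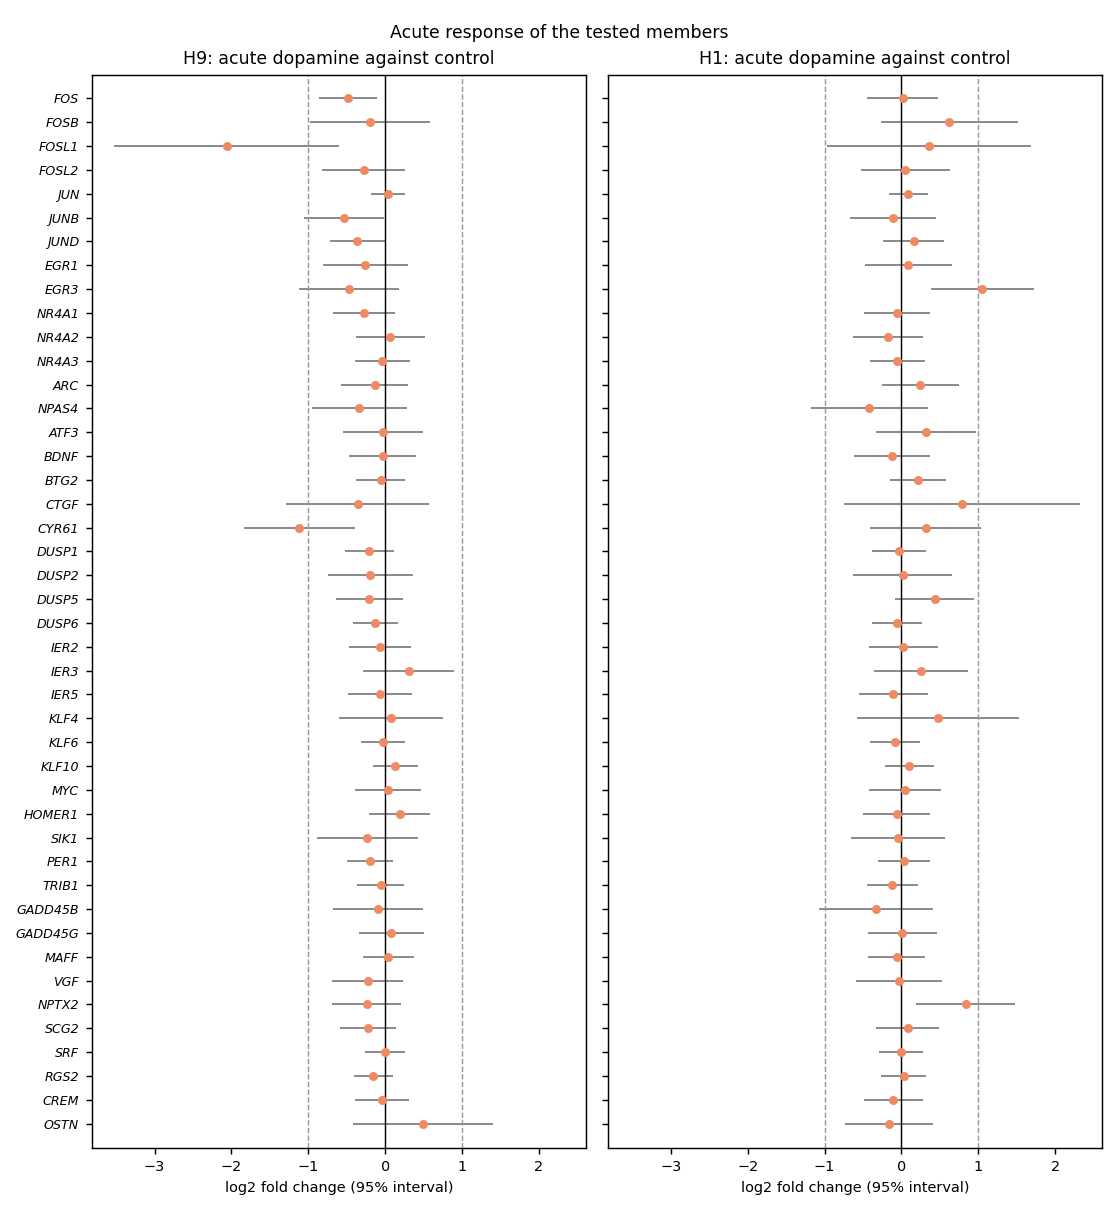
Log2 fold change of acute dopamine against control for the 44 tested members, with 95% intervals from edgeR, in H9 (left) and H1 (right); the dashed lines mark a 2-fold change. Most points lie near 0 in both lines, with FOSL1 and CYR61 low in H9 and EGR3 and NPTX2 high in H1, and none passed the adjusted threshold.

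FOS, the AP-1 subunit most widely used as a marker of neuronal activation, had 14.3, 11.04 and 13.3 TMM-normalised CPM (counts scaled to library size) in acute H9 organoids, against 16.5, 16.4 and 21.1 in control H9 organoids. All 3 acute values lay under the controls, a log2 fold change of -0.48 ± 0.18 (SE) with an unadjusted p of 0.0145 and an adjusted p of 1 in edgeR's quasi-likelihood test. In H1 it had 5.81, 4.61 and 4.69 CPM in acute against 5.19 and 4.79 CPM in control organoids, which overlapped (0.02 ± 0.22, adjusted p = 1). The other AP-1 genes ranged in H9 from -2.06 for FOSL1 to 0.04 for JUN, and in H1 from -0.11 for JUNB to 0.62 for FOSB. FOSL1 was close to the limit of these libraries, with 0 to 5 counts in acute and 7 to 13 counts in control H9 libraries (-2.06 ± 0.69, adjusted p = 1). In the mean of the lines the smallest p-values belonged to FOSL1 (-0.85 ± 0.47), JUNB (-0.32 ± 0.18) and CYR61 (-0.40 ± 0.24), each with an adjusted p of 1.

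EGR1, a zinc finger factor induced by ERK signalling, had 2.53, 4.18 and 2.09 CPM in acute against 3.08, 3.19 and 4.37 CPM in control H9 organoids, and 5.62, 8.28 and 6.10 against 5.37 and 7.11 CPM in H1. Both pairs of groups overlapped, with log2 fold changes of -0.26 ± 0.26 and 0.09 ± 0.27. Its relative EGR3 had the smallest unadjusted p in H1, with 1.86, 2.46 and 2.87 CPM in acute against 1.14 and 1.16 CPM in control organoids. The groups did not overlap there, but the change of 1.05 ± 0.32 had an unadjusted p of 0.00401 and an adjusted p of 0.783 in edgeR's test. In H9 the acute values of EGR3 were 0.867, 0.706 and 0.798 CPM against 1.18, 0.796 and 1.28 CPM in controls (-0.47 ± 0.31). The orphan nuclear receptor NR4A1 had 10.5, 8.67 and 10.7 CPM in acute against 12.4, 9.74 and 13.9 CPM in control H9 organoids, and 16.8, 19.5 and 13.2 against 15.9 and 18.3 CPM in H1, overlapping in both (-0.28 ± 0.19 and -0.06 ± 0.21). NR4A2 and NR4A3 were at 0.07 ± 0.21 and -0.04 ± 0.17 in H9 and at -0.18 ± 0.22 and -0.05 ± 0.17 in H1.

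NPAS4, a factor that in rodent neurons answers to calcium entry with little response to other signals, had 6.47, 5.24 and 3.38 CPM in acute against 7.46, 5.88 and 5.70 CPM in control H9 organoids. In H1 it had 1.35, 2.72 and 2.14 CPM in acute against 3.31 and 2.16 CPM in control organoids. Its groups overlapped in both lines, with log2 fold changes of -0.34 ± 0.29 and -0.42 ± 0.36. ARC, a synaptic regulator of AMPA receptor uptake, had 7.53, 6.25 and 6.08 CPM in acute against 7.23, 7.53 and 7.09 CPM in control H9 organoids, and 4.37, 4.80 and 5.58 against 4.34 and 3.95 CPM in H1. That was -0.14 ± 0.20 with overlap in H9 and 0.25 ± 0.24 in H1, where the groups did not overlap, each with an adjusted p of 1 in edgeR's test. BDNF, a neurotrophin and late target of these factors, was at -0.04 ± 0.20 in H9 (7.80, 9.88 and 10.4 CPM in acute against 8.47, 8.94 and 11.4 CPM in control) and at -0.12 ± 0.24 in H1 (7.30, 4.17 and 5.89 against 7.42 and 5.26 CPM), with overlap in both.

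**Figure D2:**
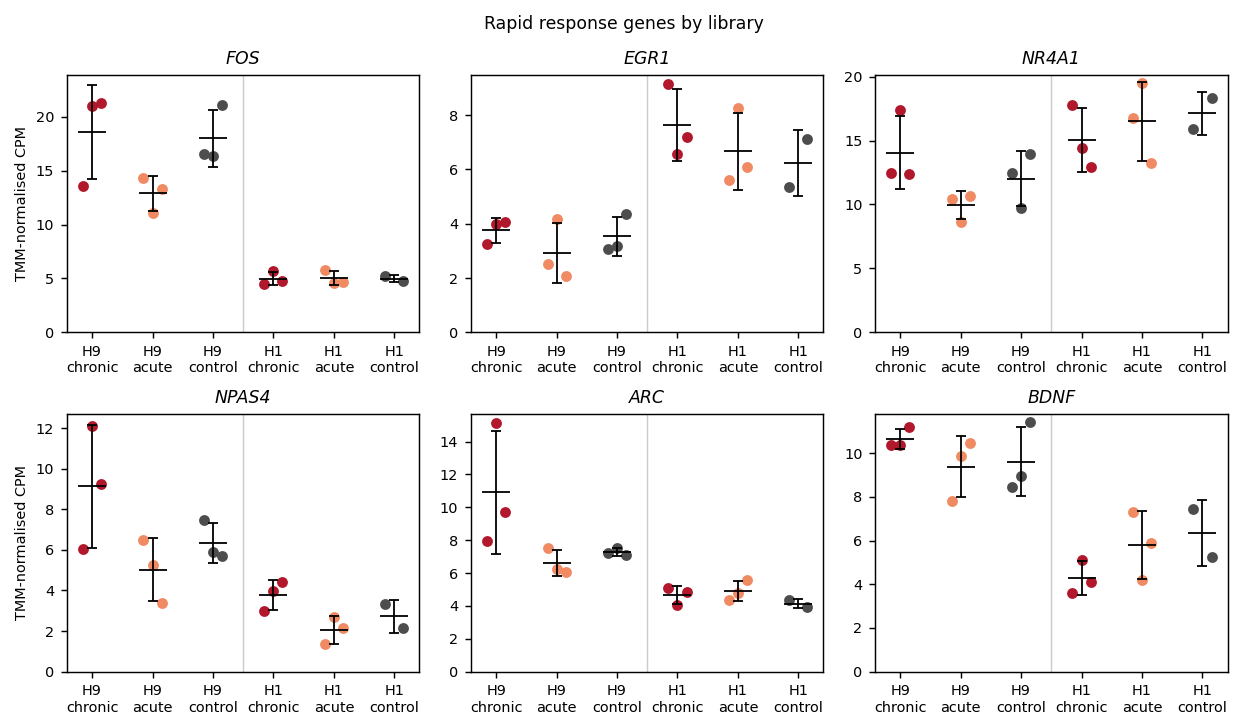
TMM-normalised CPM of FOS, EGR1, NR4A1, NPAS4, ARC and BDNF in each library (points), with the group mean (bar) and SD; groups run chronic, acute, control for H9 and then for H1. The acute points lie among or under the controls for most genes, and ARC and NPAS4 have their highest values in chronic H9 organoids.

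Among the remaining members, the feedback phosphatases DUSP1, DUSP2, DUSP5 and DUSP6, which switch off MAP kinases, ranged from -0.21 (DUSP5) to -0.13 (DUSP6) in H9 and from -0.06 (DUSP6) to 0.43 (DUSP5) in H1. DUSP5 was the third smallest p in H1 (0.43 ± 0.24, adjusted p = 1), at 7.02, 4.55 and 6.36 CPM in acute against 4.97 and 3.95 CPM in control organoids, which overlapped. The CREB target kinase SIK1, the clock gene PER1 and the CRE modulator gene CREM are all known for CRE-driven induction. They were at -0.23, -0.20 and -0.04 in H9 and at -0.05, 0.03 and -0.10 in H1. CREM and HOMER1 each have a short activity-induced form under the same symbol, which counts per symbol do not separate. The matricellular gene CYR61 (CCN1) had the smallest p in H9, with 2.00, 2.72 and 1.29 CPM in acute against 2.19, 6.25 and 4.78 CPM in control organoids. Its groups overlapped (-1.12 ± 0.34, unadjusted p = 0.00459, adjusted p = 0.906), and without the 5 libraries with blood transcripts the value was -0.11. Summed TPM of 7 mesenchyme markers was 53.1 to 111 in these acute and 47.9 to 269 in these control libraries, and their part in the CYR61 value was not tested.

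The acute effect did not pass a test of difference between the lines for any member. With edgeR's test of the acute effect in H9 minus that in H1, 0 of 44 members were higher and 0 lower (background 0%), and 0 by DESeq2 or limma. Before adjustment 0 had a positive and 4 (9.09%) a negative difference at p under 0.05, against 1.1% and 2.97% of all genes. The fourth was FOSL1 (-2.42 ± 0.94). The 3 of smallest p were EGR3 (-1.52 ± 0.44, adjusted p = 0.928), CYR61 (-1.43 ± 0.49, adjusted p = 1) and NPTX2 (-1.07 ± 0.37, adjusted p = 1). NPTX2 had 5.62, 9.42 and 4.22 CPM in acute against 3.60 and 3.53 CPM in control H1 organoids (0.83 ± 0.31, adjusted p = 1), with no overlap. Summed TPM of 7 GABAergic markers was 121 to 423 in these acute and 35.5 to 116 in these control H1 libraries. All 7 were higher in acute H1 organoids at p under 0.05 before adjustment in edgeR's test, at 1.52 to 2.23. Over all genes 2.7% were higher at that p. EdgeR called 0 of the 7 after adjustment, DESeq2 2 and limma 0. Their part in the EGR3 and NPTX2 values was not tested. In H9 NPTX2 had 82.0, 83.0 and 73.3 CPM in acute against 102, 97.3 and 81.9 CPM in control organoids (-0.24 ± 0.21, adjusted p = 1).

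After a week of daily dopamine with a last dose, a few members differed from controls, and they were other genes than FOS, EGR1, NR4A1, NPAS4, ARC and BDNF. In H9, 1 of 44 members was higher (OSTN) and 0 lower in chronic than in control organoids, where 0.649% of all genes tested were called, 0.0171% higher and 0.632% lower. In H1, 2 were higher (EGR3 and NPTX2) and 1 lower (NR4A2), where 1.59% were called (1.3% higher and 0.29% lower). In the mean of the lines 0 were higher and 1 lower (NR4A2), where 0.524% were called (0.398% higher and 0.125% lower). These counts are 2.27%, 6.82% and 2.27% of the members and rest on 1 to 3 genes each. At p under 0.05 before adjustment in edgeR's test, 4 members (9.09%) were higher and 5 (11.4%) lower in H9. Of all genes, 4.1% were higher and 7.7% lower there. In H1, 5 (11.4%) were higher and 7 (15.9%) lower, against 7.21% and 3.56% of all genes. In the mean, 8 (18.2%) were higher and 5 (11.4%) lower, against 10.0% of all genes in either direction. The median log2 fold change of the 44 was 0.07 in H9, -0.08 in H1 and 0.02 in the mean, against 0.01 over all genes in each, and 29, 19 and 24 of them were above 0.

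NR4A2 (NURR1), an orphan nuclear receptor of the NR4A family that is also needed for dopamine neurons, was lower after chronic dopamine. It lies on chromosome 2 from 156324437 to 156342348 on the minus strand (GENCODE release 44, GRCh38). It had 52.1, 91.4 and 78.1 CPM in chronic, 144, 123 and 113 CPM in acute and 134 and 152 CPM in control H1 organoids. In H9 it had 9.21, 10.2 and 6.72 CPM in chronic, 13.5, 18.3 and 16.5 CPM in acute and 11.4, 17.5 and 17.2 CPM in control organoids. In both lines every chronic library was below every acute and every control library, and acute and control overlapped. The mean effect against control was -0.89 ± 0.15, or 1.85-fold lower, with an adjusted p of 0.0151 in edgeR's quasi-likelihood test, and it was -0.95 ± 0.22 in H1 (adjusted p = 0.033) and -0.82 ± 0.22 in H9 (adjusted p = 0.11). Chronic against acute gave -0.83 ± 0.15 in the mean (adjusted p = 0.0254). The effect did not pass a test of difference between the lines (0.13 ± 0.31, adjusted p = 0.91). The mean call against control ended with the blood and gut split as a covariate (-0.77, adjusted p = 0.169), in the 12 libraries with gut transcripts (-0.64, adjusted p = 0.985) and without library 8 (-0.84, adjusted p = 0.126). The H1 call ended with all 18 libraries (-0.85, adjusted p = 0.128) with limma on log2(TPM + 1) (-0.93, adjusted p = 0.0766) or log2(TPM + 0.1) (-0.95, adjusted p = 0.0713), with the covariate (-0.86, adjusted p = 0.102) and in the libraries with gut transcripts (-0.88, adjusted p = 0.545). It ended without library 1, 3, 7 or 8 (-0.75, -0.995, -1.04 and -0.86, adjusted p of 0.143, 0.0779, 0.0909 and 0.445), and the chronic against acute call without library 1, 3, 4, 5, 10, 12, 14 or 15 (-0.85 to -0.73, adjusted p up to 0.0943). With all 18 libraries, limma, the covariate or the libraries with gut transcripts, this chronic against acute call ended too, at -0.87 to -0.77 and adjusted p-values of 0.0511 to 0.127.

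NR4A3, another nuclear receptor of the family, had 42.3, 61.3 and 52.3 CPM in chronic against 66.9 and 72.3 CPM in control H1 organoids, and 8.57, 8.04 and 10.6 against 12.1, 11.3 and 10.7 CPM in H9. The groups did not overlap, but the changes of -0.42 ± 0.17 in H1 and -0.32 ± 0.17 in H9 had adjusted p-values of 0.323 and 0.489. NR4A1 was at -0.19 ± 0.21 in H1 and 0.22 ± 0.19 in H9. Beside these values, summed TPM of 7 glutamatergic markers was 1751 to 2149 in chronic, 2306 to 2990 in acute and 2979 to 3692 in control H1 libraries. In H9 it was 34.7 to 53.1 in chronic, 52.5 to 71.1 in acute and 39.1 to 61.1 in control libraries. None of the 7 was called against control in either line by edgeR's test, while DESeq2 called 2 lower in each line and limma 0. At p under 0.05 before adjustment 1 was higher and 4 lower in H1 (7.21% and 3.56% of all genes), and 0 and 2 in H9 (4.1% and 7.7%). In chronic against acute organoids edgeR called 3 of the 7 lower in the mean of the lines and 3 in H9, as did DESeq2, and limma 1 and 3. Of all genes, edgeR called 0.171% lower in the mean and 1.23% in H9 in that comparison. The part of glutamatergic cells in the NR4A2 values was not tested.

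EGR3, a calcineurin- and ERK-responsive factor on chromosome 8 (22687659 to 22693480, minus strand, GRCh38), rose in chronic H1 organoids. It had 3.60, 3.17 and 3.54 CPM in chronic, 1.86, 2.46 and 2.87 CPM in acute and 1.14 and 1.16 CPM in control organoids, and the 3 groups did not overlap. That was 1.58 ± 0.32, or 2.98-fold, with an adjusted p of 0.0164 in edgeR's test, at 44 to 65 counts in chronic and 20 to 22 counts in control libraries. In H9 it had 0.826, 1.58 and 0.970 CPM in chronic against 1.18, 0.796 and 1.28 CPM in control organoids, which overlapped (0.04 ± 0.30). The difference of the effect between the lines, H9 minus H1, was -1.54 ± 0.43 with an adjusted p of 0.0836. The H1 call ended without library 1, 7 or 8 (adjusted p of 0.0667, 0.103 and 0.292) and in the libraries with gut transcripts (1.56, adjusted p = 0.423), at values from 1.54 to 1.58.

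NPTX2, on chromosome 7 from 98617285 to 98629869 (plus strand, GRCh38), also rose in chronic H1 organoids. It had 13.8, 8.01 and 7.77 CPM in chronic, 5.62, 9.42 and 4.22 CPM in acute and 3.60 and 3.53 CPM in control organoids. Chronic and control did not overlap, and acute lay between and overlapped chronic. The change was 1.47 ± 0.30, or 2.78-fold (adjusted p = 0.0187 in edgeR's test). In H9, where it was far more abundant, it had 78.5, 102 and 86.8 CPM in chronic, 82.0, 83.0 and 73.3 CPM in acute and 102, 97.3 and 81.9 CPM in control organoids, with overlap (-0.07 ± 0.21). The effect differed between the lines by -1.55 ± 0.37, H9 minus H1 (adjusted p = 0.0415). The H1 call ended without library 1, 7 or 8 (1.15, 1.49 and 1.46, adjusted p of 0.0924, 0.104 and 0.307) and in the libraries with gut transcripts (1.43, adjusted p = 0.59). The line difference ended there (-1.63, adjusted p = 0.621) and without library 1, 7, 8, 10, 12, 13, 15, 16 or 17 (-1.57 to -1.22, adjusted p of 0.0548 to 0.229). Summed TPM of 7 GABAergic markers was 359 to 640 in chronic, 121 to 423 in acute and 35.5 to 116 in control H1 libraries, and 7 of these 7 genes were called higher in chronic H1 organoids (GAD1 3.08 ± 0.41, adjusted p = 0.0013). Of all genes, 1.3% were called higher in that H1 comparison. In H9 the summed TPM of these markers was 1147 to 1486 in chronic, 777 to 1206 in acute and 946 to 1220 in control libraries. There 0 of 7 were called. The part of GABAergic cells in the EGR3 and NPTX2 values was not tested.

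OSTN (osteocrin), a secreted peptide described as an activity-regulated gene of primate neurons, was called in H9. It lies on chromosome 3 from 191199241 to 191265615 (plus strand, GRCh38). It had 2.73, 1.31 and 1.36 CPM in chronic, 0.667, 0.655 and 0.921 CPM in acute and 0.355, 0.367 and 0.822 CPM in control H9 organoids. Every chronic value was above every other, at 19 to 43 counts in chronic and 6 to 16 in control libraries, and the change was 1.76 ± 0.38, or 3.39-fold (adjusted p = 0.0457 in edgeR's test). In H1, where it was higher throughout, it had 7.47, 10.8 and 8.46 CPM in chronic, 13.3, 10.9 and 17 CPM in acute and 17.1 and 13.7 CPM in control organoids. There every chronic value was below the others, at -0.79 ± 0.28 against control (adjusted p = 0.221). The effect differed between the lines by 2.55 ± 0.47, H9 minus H1 (adjusted p = 0.0124), with an adjusted p of at most 0.0495 when any 1 library was left out and of 0.257 in the libraries with gut transcripts (3.28). The H9 call was close to the threshold. It ended without library 1, 2, 3, 4, 5, 7, 8, 10, 11, 12, 13, 15, 16 or 17 (1.33 to 1.96, adjusted p of 0.0526 to 0.281), with the split as a covariate (1.71, adjusted p = 0.145), in the libraries with gut transcripts (2.32, adjusted p = 0.774), with limma on log2(TPM + 1) (0.80, adjusted p = 0.113), and with only the H9 chronic and control libraries in the fit (1.77, adjusted p = 0.359). Summed TPM of 7 mesenchyme markers was 25.9 to 33.9 in chronic, 53.1 to 111 in acute and 47.9 to 269 in control H9 libraries, with 4 of 7 called lower in chronic than in control organoids, and that of 7 radial glia markers was 1212 to 1354, 1690 to 2346 and 1653 to 2033 in the same order, with 0 of 7 called by edgeR, 3 lower at p under 0.05 before adjustment, 2 lower by DESeq2 and 1 lower by limma. Of all genes, edgeR called 0.632% lower in chronic than in control H9 organoids. The part of mesenchyme and radial glia cells in the H9 values of OSTN was not tested. In H1, summed TPM of 7 glutamatergic markers was 1751 to 2149 in chronic and 2979 to 3692 in control libraries. That of 7 GABAergic markers was 359 to 640 and 35.5 to 116. The part of those cells in the H1 values of OSTN was not tested either. OSTN is the 1 member in the authors' deposited table of 213 genes for chronic dopamine, where it has a log2 fold change of -1.76 and a fold change of 3.39 with an FDR of 0.04. The signs of these differ, and the table does not state their direction or the samples compared. Apart from sign, the sizes are those of the H9 change against control given above (1.76, or 3.39-fold). The authors' deposited table of 55 genes for acute dopamine holds 0 members.

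**Figure D3:**
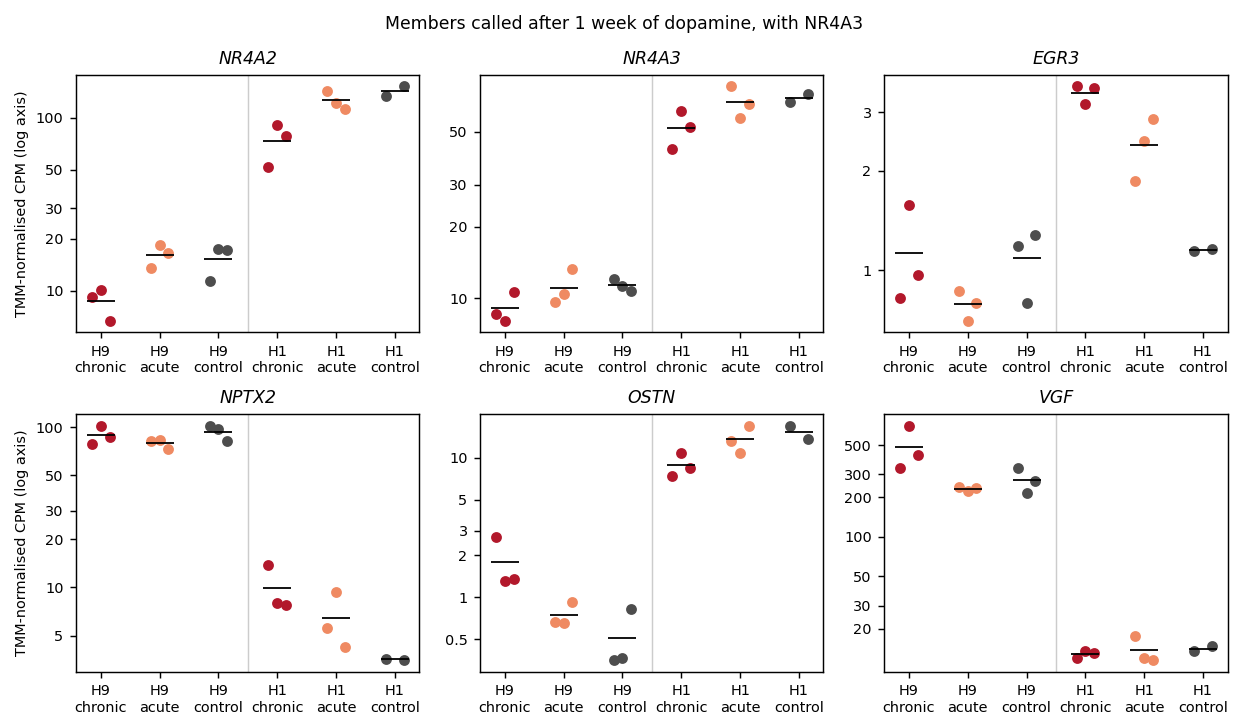
TMM-normalised CPM on log axes of NR4A2, NR4A3, EGR3, NPTX2, OSTN and VGF in each library (points) with the group mean (bar); groups run chronic, acute, control for H9 and then for H1. NR4A2 is lowest in the chronic libraries of both lines, EGR3 and NPTX2 are highest in chronic H1 against control H1 organoids, and OSTN is highest in chronic H9 but lowest in chronic H1 organoids.

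FOS, EGR1, NR4A1, NPAS4, ARC and BDNF were not called after a week, against control or acute organoids. FOS had 13.5, 21.0 and 21.3 CPM in chronic against 16.5, 16.4 and 21.1 CPM in control H9 organoids, and 4.48, 5.70 and 4.80 against 5.19 and 4.79 CPM in H1, with overlap in both (0.05 ± 0.18 and 0.00 ± 0.22). EGR1 was at 0.08 ± 0.26 in H9 and 0.29 ± 0.27 in H1. ARC had 7.94, 15.1 and 9.70 CPM in chronic against 7.23, 7.53 and 7.09 CPM in control H9 organoids, with no overlap, at 0.58 ± 0.20 and an adjusted p of 0.238. NPAS4 had 6.03, 12.1 and 9.24 CPM in chronic against 7.46, 5.88 and 5.70 CPM in control H9 organoids, with overlap (0.52 ± 0.29, adjusted p = 0.511). Library 11 gave the highest value of both genes, and of VGF. It differed from libraries 10 and 12 beyond these genes. Its summed TPM of 12 heat shock genes was 4772, against 5749 and 5861. That of 7 radial glia markers was 1354, against 1212 and 1297. What sets this library apart was not tested. In H1, ARC and NPAS4 were at 0.18 ± 0.24 and 0.47 ± 0.35. BDNF was at 0.15 ± 0.20 in H9 and at -0.57 ± 0.24 in H1 (adjusted p = 0.366), where chronic had 3.60, 5.12 and 4.11 CPM and control 7.42 and 5.26 CPM, without overlap.

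**Figure D4:**
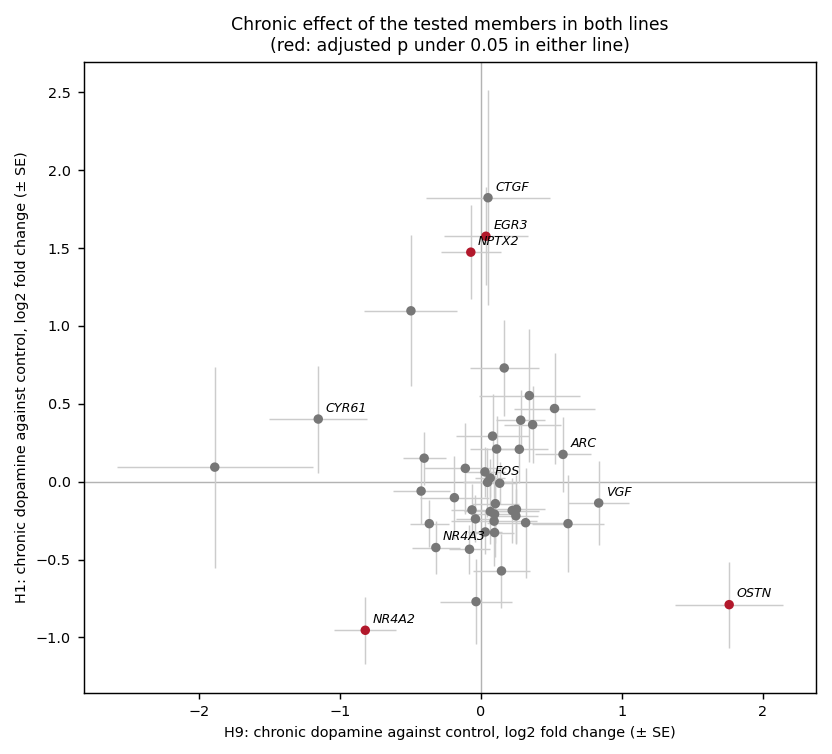
Log2 fold change of chronic dopamine against control in H9 (horizontal) and H1 (vertical) for the 44 tested members, with SE from edgeR; red points passed an adjusted p of 0.05 in either line. NR4A2 is low in both lines, EGR3 and NPTX2 are high in H1 and near 0 in H9, and OSTN is high in H9 and low in H1.

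Chronic organoids also differ from acute ones by the week of earlier doses, since both had the last dose of 1 hour. In H9, 1 of 44 members was higher (VGF) and 0 lower in chronic than in acute organoids, where 1.45% of all genes tested were called (0.216% higher and 1.23% lower). DESeq2 called 3 higher and 2 lower there, and limma 1 higher and 2 lower. Before adjustment 10 members (22.7%) were higher and 3 (6.82%) lower in H9 at p under 0.05 in edgeR's test, against 17.8% of all genes in either direction. In H1, 0 were called in either direction (background 0.0455%), 0 by limma and 1 lower by DESeq2. Before adjustment 2 members (4.55%) were higher and 7 (15.9%) lower at p under 0.05, against 4.46% and 2.35% of all genes. In the mean of the lines 0 were higher and 1 lower (NR4A2, above), where 0.239% were called (0.0683% higher and 0.171% lower). The medians of the members were 0.20 in H9, -0.09 in H1 and 0.06 in the mean, against 0.00 over all genes in each. VGF, on chromosome 7 from 101162509 to 101165569 (minus strand, GRCh38), had 336, 704 and 422 CPM in chronic, 240, 224 and 234 CPM in acute and 335, 217 and 266 CPM in control H9 organoids. Every chronic value was above every acute value, and the lowest chronic value lay next to the highest control value. Against acute it was 1.07 ± 0.22, or 2.09-fold (adjusted p = 0.0216 in edgeR's test), and against control 0.84 ± 0.22 (adjusted p = 0.099). In chronic against acute H9 organoids edgeR also called 3 of 7 glutamatergic, 2 of 7 mesenchyme, 1 of 7 radial glia and 1 of 5 astrocyte markers lower, with 0 higher, and their part in the VGF value was not tested. Without library 11, the highest, the change against acute was 0.72 (adjusted p = 0.0431). The call ended without library 13, 14 or 15 (1.09, 1.05 and 1.07, adjusted p of 0.0549, 0.124 and 0.0627), in the libraries with gut transcripts (1.08, adjusted p = 0.0908) and with only the libraries compared (1.05, adjusted p = 0.229). In H1, VGF had 11.9, 13.6 and 13.1 CPM in chronic against 17.7, 12.01 and 11.6 CPM in acute organoids (-0.10 ± 0.24).

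In H1 the 3 members of smallest p between chronic and acute organoids were all lower and none passed. They were NR4A2 (-0.78 ± 0.20, adjusted p = 0.233), the AP-1 subunit FOSL2 (-0.82 ± 0.25, adjusted p = 0.411) and RGS2 (-0.35 ± 0.13, adjusted p = 0.56). FOSL2 had 22.4, 25.5 and 27.1 CPM in chronic against 69.6, 29.96 and 32.3 CPM in acute H1 organoids, without overlap and with library 4 highest. RGS2 had 18.7, 17.8 and 20.6 against 22.5, 27.7 and 22.8 CPM. For the difference of the chronic effect between the lines, 1 member was higher (OSTN) and 1 lower (NPTX2), where 1.72% of all genes tested were called (0.188% higher and 1.54% lower).

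Lists of genes upstream, beside and downstream of the members held no acute call either. Of 31 other primary response genes, 10 ERK feedback regulators, 16 late neuronal activity genes, 28 tested upstream kinases and factors and 12 heat shock genes, edgeR called 0 in acute against control organoids in either line, as did DESeq2 and limma. Before adjustment, p was under 0.05 for 0 higher and 1 lower of these genes in H9 and for 4 higher and 2 lower in H1, of 97 tested, beside the shares of all genes at that p given above. In chronic against control H9 organoids, where 0.649% of all genes were called, 1 gene of these lists was called. It was ZFP36L1, an mRNA decay factor, at -0.89 ± 0.18 (adjusted p = 0.0327). In H1, 1.59% of all genes were called (1.3% higher and 0.29% lower). There ID1, an inhibitor of basic helix-loop-helix factors, was higher (1.58 ± 0.29, adjusted p = 0.0116). SPRY4, a feedback inhibitor of receptor tyrosine kinases, was lower (-0.71 ± 0.16, adjusted p = 0.0315). MEF2C, an activity-dependent factor, was lower there too (-0.77 ± 0.15, adjusted p = 0.0123). Among the late neuronal genes 3 of 16 (18.75%, against 1.3% of all genes) were higher in chronic H1 organoids: TAC1, the substance P precursor (2.98 ± 0.40, adjusted p = 0.00141), SV2C, a synaptic vesicle protein (2.08 ± 0.44, adjusted p = 0.0231), and PCSK1, a prohormone convertase (2.26 ± 0.51, adjusted p = 0.0315). DESeq2 also called 3 of the 16 higher, and limma 1. TAC1, SV2C and PCSK1 moved with the GABAergic markers given above, whose part was not tested. Against control, the 12 heat shock genes held 0 calls after a week in either line, with none at an unadjusted p under 0.05.

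Most members differed between the lines, as did most genes tested. Over the mean of the 3 treatments, H9 had 17 of 44 members above H1, which is 38.6%, the same as the 38.6% of all genes tested. It had 22 below H1 (50%, against 35.9% of all genes). In either direction 88.6% of the members were called, against 74.5% of all genes. VGF, NPTX2 and SCG2 were higher in H9, with VGF at 217 to 704 CPM in H9 and 11.6 to 17.7 CPM in H1 (4.53 ± 0.16), NPTX2 at 73.3 to 102 and 3.53 to 13.8 CPM (3.84 ± 0.16), and SCG2 at 792 to 1336 and 94.98 to 185 CPM (2.84 ± 0.12). FOS (1.70 ± 0.12) and RGS2 (1.22 ± 0.08) were also higher in H9. The NR4A genes, OSTN, SIK1 and IER5 were lower in H9. NR4A2 had 6.72 to 18.3 CPM in H9 and 52.1 to 152 CPM in H1 (-3.09 ± 0.13), NR4A3 8.04 to 13.2 and 42.3 to 77.8 CPM (-2.58 ± 0.10), and OSTN 0.355 to 2.73 and 7.47 to 17.1 CPM (-3.78 ± 0.19). SIK1 (-2.88 ± 0.17) and the early response gene IER5 (-1.89 ± 0.12) followed, and NR4A1 was lower by less (-0.45 ± 0.11). The 5 of smallest p in each direction (VGF, SCG2, NPTX2, RGS2 and FOS, and NR4A3, NR4A2, OSTN, SIK1 and IER5) had adjusted p-values of at most 5.32e-10 in edgeR's test. EGR1 (-0.998 ± 0.15) and EGR3 (-1.09 ± 0.17) were lower in H9, and ARC (0.82 ± 0.13), BDNF (0.87 ± 0.13) and NPAS4 (1.26 ± 0.19) higher. KLF6, FOSB, IER2, MAFF and BTG2 were not called, at 0.14, 0.21, -0.10, -0.06 and -0.01. The same libraries differ in cell markers, with 7 glutamatergic markers at 34.7 to 71.1 summed TPM in H9 and 1751 to 3692 in H1, and 7 GABAergic markers at 777 to 1486 and 35.5 to 640. Line and cell makeup cannot be told apart.

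**Figure D5:**
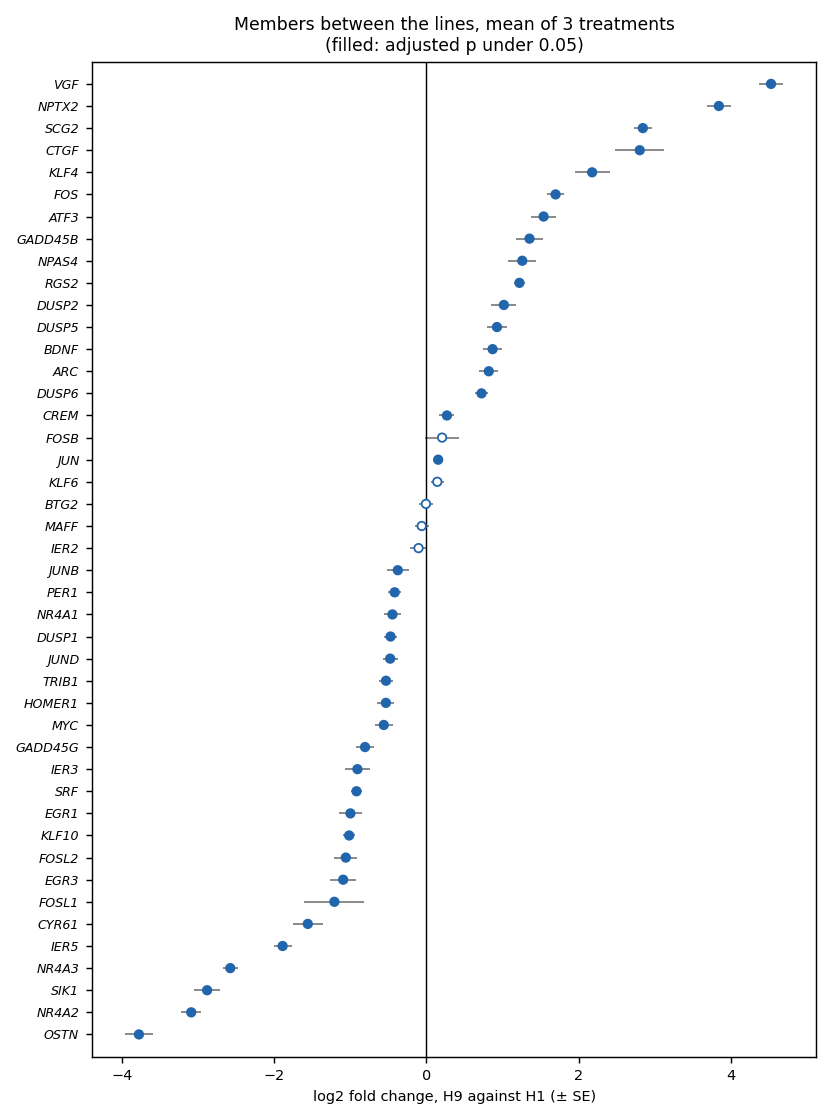
Log2 fold change of H9 against H1 (mean of the 3 treatments) for the 44 tested members, with SE from edgeR, ordered by size; filled points passed an adjusted p of 0.05. VGF, NPTX2 and SCG2 are at the H9 end, and OSTN, NR4A2 and SIK1 at the H1 end.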

How the data were processed

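A table of unnormalised counts by gene symbol was deposited by the authors for all 18 libraries, and a matching table of TPM, per the file headers. The labels' protocols describe poly(A) RNA, dUTP strand marking and paired ends, and the submitters' processing notes name GRCh38, also called hg38. The aligner, the counter and the annotation they used were not given in the sources used here. From the authors come also 2 deposited tables of comparisons, which hold for each gene a log2 fold change, a fold change with a sign (taken as a score) and an FDR p-value. Symbols turned into dates took up 28 entries and 0.439% of counts.

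Counts were filtered with filterByExpr over the 6 groups, scaled by TMM and tested with edgeR 4.0.16 (glmQLFit, glmQLFTest, R 4.3.3) in 1 fit of group means over 17 libraries, with Benjamini-Hochberg adjustment over 17567 genes and a threshold of 0.05. The SE is the log2 fold change divided by the square root of F. Limits and intervals cover counting error or the spread of libraries only. Alternatives were all 18 libraries, DESeq2 size factors, upper-quartile scaling, no filter, a CPM of at least 1 in 3 libraries, DESeq2 1.42.0, limma 3.58.1 on log2(TPM + 1) or log2(TPM + 0.1), the blood and gut split, only the libraries compared, a threshold of 0.1 and each library left out. The rule names each member called, or the 3 of smallest p, with FOS, EGR1, NR4A1, NPAS4, ARC and BDNF always given, and the 5 of smallest p in each direction between lines. Other genes and values named beyond it (for example NR4A3 and the families) were chosen after their values were seen. Members and lists were chosen with earlier results of these data known. CTGF and CYR61 are CCN2 and CCN1 in GENCODE release 44, which matched all 46 members.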

Additional observations from a re-analysis of the deposited data

Results flagged for a closer look

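The chronic effect of OSTN differed between the lines by 2.55 ± 0.47 on the log2 scale (H9 minus H1, adjusted p = 0.0124 in edgeR's quasi-likelihood test of the difference), with 3 of 3 chronic libraries above all controls in H9 and 3 of 3 below all controls in H1. The chronic effect of NPTX2 differed by -1.55 ± 0.37 (adjusted p = 0.0415 in the same test), with 3 of 3 chronic libraries above all controls in H1 and overlap with controls in H9. The H1 controls used were 2 libraries. The NPTX2 call ended in 9 of 17 fits with 1 library left out. Each of these calls ended in the libraries with gut transcripts, with 1 control per line, where the differences were 3.28 for OSTN and -1.63 for NPTX2.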

How the results depend on the processing

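The acute counts of members called stayed 0 in H9, H1, the mean of the lines and the line difference under all 12 alternatives and with any 1 library left out, by a test whose threshold few genes of any kind passed. The chronic counts did not. For chronic against control in the mean of the lines (1 member), no low-count filter and DESeq2 gave 2, and the blood and gut split as a covariate and the libraries with gut transcripts gave 0. In H1 (3 members) the libraries with gut transcripts gave 0 and only the libraries compared 6. In H9 (1 member) no filter gave 4, DESeq2 3 and a threshold of 0.1 gave 2, while limma on log2(TPM + 1), the covariate, the libraries with gut transcripts and only the libraries compared gave 0. For chronic against acute in the mean (1 member), no filter and DESeq2 gave 3 and a threshold of 0.1 gave 2, while all 18 libraries, both limma fits, the covariate and the libraries with gut transcripts gave 0. In H1 (0 members) no filter and DESeq2 gave 1. In H9 (1 member) no filter gave 4, a CPM of at least 1 gave 2, DESeq2 5, limma 3 with either pseudocount and a threshold of 0.1 gave 5, while the libraries with gut transcripts and only the libraries compared gave 0. For the chronic line difference (2 members) no filter gave 4 and the libraries with gut transcripts 0. With 1 library left out the counts ran from 0 to 2 (mean), 0 to 4 (H1), 0 to 1 (H9), 0 to 1 (chronic against acute, mean), 0 to 5 (chronic against acute, H9), 1 to 3 (line difference) and 35 to 40 (H9 against H1, main 39). The cause of these moves was not tested, except that fewer libraries enter the fits of libraries with gut transcripts and of the libraries compared.

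The values that changed sign were not called as reported. In the libraries with gut transcripts, acute against control gave 0.21 for CYR61 and 0.22 for EGR1 in the mean, -0.17 for FOS and 0.022 for NR4A1 in H1, and 0.034 for EGR1 and 0.26 for BDNF in H9. Limma with a pseudocount of 1 and of 0.1 gave -0.017 and -0.020 for FOS (acute, H1), 0.012 and 0.015 for BDNF (acute, H9), -0.011 and -0.011 for FOS and -0.010 and -0.0090 for NR4A1 (chronic, mean), 0.026 and 0.028 for FOS (chronic, H1) and -0.047 and -0.049 for FOS (chronic, H9). FOS in chronic H1 organoids, at 0.00 as reported, gave 0.0072 with all 18 libraries, 0.017 with upper-quartile scaling, 0.0029 without a filter, 0.0028 with the CPM filter and 0.081 with the covariate. With 1 library left out, acute values ran from -0.27 to 0.023 for EGR1 and -0.19 to 0.058 for BDNF in the mean, from -0.10 to 0.079 for FOS, -0.10 to 0.31 for EGR1, -0.19 to 0.080 for NR4A1 and -0.35 to 0.15 for BDNF in H1, and from -0.12 to 0.11 for BDNF in H9. Chronic values ran from -0.041 to 0.12 for FOS and -0.062 to 0.071 for NR4A1 in the mean, from -0.12 to 0.071 for FOS in H1, and from -0.063 to 0.24 for FOS and -0.0091 to 0.25 for EGR1 in H9.

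Of the named genes' values under other settings, 768 kept direction and side of the threshold, 22 lost a call, 2 gained one and 23 turned. Limma shifted the median of all genes by over 0.1 only in chronic against acute H9 (-0.106 and -0.134) and in the chronic line difference (-0.122). Depth limits members with few counts, such as EGR2, EGR4 and FOSL1, each with a library at 0, and FOSB, at 7 to 23 counts. No paired analysis was possible because the labels number the libraries 1 to 18 and the groups share no number.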
